A study of Mus musculus with 22 samples.

Results

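The genes described here are 7 subunits of the GABA-A receptor, the alpha subunits Gabra2, Gabra3, Gabra4, Gabra5 and Gabra6, the beta subunit Gabrb2 and the delta subunit Gabrd. They were chosen by symbol, and all 7 passed the filter on low counts that left 20524 of the 55385 genes in the files for testing. Their transcripts' TPM (a level scaled for transcript length and for library size) and estimated counts were summed per gene and followed across 6 cell types of the mouse nervous system. Another 9 genes of the receptor family are given beside them.

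GABA-A receptors are chloride channels built from subunits around a central pore, and they carry most of the fast inhibition of the brain. The commonest type at synapses joins alpha and beta subunits with a gamma subunit, which is needed for anchoring at the synapse and for binding of benzodiazepines between alpha and gamma. Receptors in which delta takes the place of gamma sit mainly outside synapses, where they respond to low ambient GABA, and delta is known to pair with alpha 6 in cerebellar granule cells and with alpha 4 in dentate granule cells.

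The libraries held mRNA bound to ribosomes that carried an epitope tag on the ribosomal protein Rpl22, which a Cre driver switched on in 1 cell type of 6-week-old Rpl22 Fl/+ mice (RiboTag). Rbp4-Cre marked dentate gyrus granule cells in hippocampus and layer V neurons in cortex, Gabra6-Cre marked granule cells in cerebellum, and Dlx6a-Cre marked inhibitory interneurons in hippocampus, where each library pooled 2 mice. Astrocytes and microglia came from cortex, with an Aldh1l1 driver (labelled Aldh1-cre) and a Tmem119 driver, both of them inducible by tamoxifen in the study's methods. Each cell type had 3 biological replicates, 18 libraries in all, with 38270477 to 71440915 estimated counts per library. Of the 22 libraries deposited, 4 repeated a replicate in a second batch and were used only as a check. All interneuron and microglia libraries came from batch 2 and the other libraries used came from batch 1, so batch and cell type cannot be told apart between these sets in the 18 libraries, and the main changes seen within a batch are given beside the results. The driver of the cerebellar libraries uses the promoter of Gabra6, so the cells sampled there were selected through a gene described here. In these samples fewer cells of a type and less mRNA per cell cannot be told apart.

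The markers of each labelled cell type were highest in that cell type for all 4 genes of dentate granule cells, cerebellar granule cells, interneurons, astrocytes and microglia. For layer V neurons this held for 2 of 4, as Bcl11b was highest in dentate granule cells and Etv1 in cerebellar granule cells. The libraries were not free of mRNA of other cells. The summed TPM of 4 neuronal markers (Rbfox3, Snap25, Syt1 and Tubb3) was 748 to 986 in astrocyte libraries and 351 to 392 in microglial libraries, against 7336 to 7519 in layer V libraries, with Snap25 the most abundant and none of the 4 at 0. The summed TPM of 4 oligodendrocyte markers was 2391 to 2561 in interneuron libraries, with Mbp the most abundant at 1184. It was 677 to 857 in astrocyte and 377 to 451 in microglial libraries, against 92.3 to 341 in the dentate, layer V and cerebellar libraries. Markers of Purkinje cells (3 genes) summed to 33.8 TPM on average in cerebellar granule cell libraries, and those of endothelial cells (2 genes) to 106 TPM in microglial libraries. Their part in the results below was not tested.

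The stretch of the alpha subunits that lies at the benzodiazepine site is shown because it divides the alpha genes by a known pharmacological property: receptors with a histidine there bind diazepam and those with an arginine (alpha 4 and alpha 6) do not. The capitals mark the codon of that residue in 33 coding bases of each of the 5 alpha genes, read 5′ to 3′ on the coding strand from GRCm38.
Gabra2: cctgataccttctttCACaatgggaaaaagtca
Gabra3: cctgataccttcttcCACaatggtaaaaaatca
Gabra4: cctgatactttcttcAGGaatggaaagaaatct
Gabra5: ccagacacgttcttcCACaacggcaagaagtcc
Gabra6: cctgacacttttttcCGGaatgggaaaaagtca
The codon was CAC in Gabra2, Gabra3 and Gabra5, AGG in Gabra4 and CGG in Gabra6. Each stretch lay within 1 coding exon on the minus strand, at chr5:71014490-71014522 (exon 5 of Gabra2-203), chrX:72501153-72501185 (exon 5 of Gabra3-201), chr5:71641137-71641169 (exon 4 of Gabra4-201), chr7:57488876-57488908 (exon 6 of Gabra5-202) and chr11:42317632-42317664 (exon 4 of Gabra6-203). Gabra4 and Gabra6, the pair with an arginine codon, were highest in different cell types, as described below.

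The promoters of Gabra6 and Gabra5 are shown because no other pair of these genes was so opposed between cerebellar granule cells and forebrain neurons. These are the 250 bases before the start site on the gene's strand, from RefSeq on GRCm38.p6, which lie at chr11:42321073-42321322 (minus strand) and chr7:57510060-57510309 (minus strand) and overlap no annotated exon. Capitals mark matches on either strand to TTGGC, a core of the motif of NFI factors (reverse complement GCCAA), or to CAGATG, an E-box bound by NeuroD factors (reverse complement CATCTG).
Gabra6: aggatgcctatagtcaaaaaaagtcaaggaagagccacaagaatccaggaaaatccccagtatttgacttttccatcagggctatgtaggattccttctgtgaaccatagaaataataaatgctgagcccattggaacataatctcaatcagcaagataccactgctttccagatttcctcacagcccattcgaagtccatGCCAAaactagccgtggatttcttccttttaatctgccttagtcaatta
Gabra5: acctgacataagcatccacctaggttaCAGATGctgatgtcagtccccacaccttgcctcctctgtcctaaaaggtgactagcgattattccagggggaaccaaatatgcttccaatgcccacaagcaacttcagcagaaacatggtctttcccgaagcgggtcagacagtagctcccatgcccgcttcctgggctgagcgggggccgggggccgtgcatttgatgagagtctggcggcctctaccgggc
The Gabra6 promoter held 1 match to TTGGC, on the reverse strand with its first base at -49 from the start site, and none to CAGATG. A match to TTGGC was also in the windows of Gabra2 (-192), Gabra4 (-115) and Gabrb2 (-211, in 1 of its 3 windows). Gabra2 and Gabra4 were low in cerebellar granule cells, while Gabrb2 was, like Gabra6, highest there. The Gabra5 promoter held 1 match to CAGATG at -223 and none to TTGGC. Of 32851 promoter windows of the same length in the RefSeq table, 41.5% held TTGGC and 14.4% held CAGATG on either strand, so a match is a description of these letters. The motif GCGTGGGCG of Egr factors was also searched and was in 0.536% of the windows and in no window of the 6 members that the table held. The base composition of the windows differed, with 40.8% G and C for Gabra6 and 56.4% for Gabra5 against a median of 52.4% over all windows.

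Gabra6 (ENSMUSG00000020428.13, chromosome 11 from 42306437 to 42321072, minus strand), which encodes an alpha subunit known from cerebellar granule cells, was at 3899.9, 3869.9 and 3916 TPM in the cerebellar granule cell libraries. In the other 15 libraries its level was between 0 and 0.302 TPM, which rested on 0 to 22 estimated reads per library. The cerebellar libraries thus stood apart from all others with no overlap, and the level of Gabra6 there was the highest of the 16 receptor genes listed here in any cell type. The log2 fold change against layer V neurons, the next in order, was 13.96 (standard error 0.194, adjusted p = 1.4e-19). The order among the other 5 cell types was not resolved at these counts. Layer V neurons were listed above interneurons by a log2 fold change of 1.76 (adjusted p = 0.0096), but without layer V replicate 2, which held 22 of the reads, the change was 1.07 (adjusted p = 0.13).

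Gabra5 (ENSMUSG00000055078.7, chromosome 7 from 57407672 to 57510059, minus strand) encodes the alpha subunit known for tonic inhibition in the hippocampus. Its level in dentate granule cells was 168, 192 and 161 TPM, and layer V neurons followed at 55.4, 53.4 and 58.7 TPM. Interneurons were at 31.7, 33.8 and 30.4 TPM. No library of these 3 cell types overlapped another type, and each step down was past the test: log2 fold changes of 1.40 (standard error 0.120, adjusted p = 1.3e-08) from dentate granule cells to layer V neurons and 1.13 (standard error 0.121, adjusted p = 2.7e-07) from layer V neurons to interneurons. Astrocytes were at 9.75 to 12.2 TPM and microglia at 2.71 to 4.13 TPM. Cerebellar granule cells held 0.151 to 0.225 TPM of Gabra5 on 6 to 13 estimated reads per library, the lowest level of the 6 cell types with no overlap. Gabra5 was the gene with the most differences, called (adjusted p of at most 0.05 and at least 2-fold) in all 15 pairs of cell types, where 45.3% of the tests over all genes and pairs were called. On log2(TPM + 1) with limma, layer V neurons and interneurons differed by 0.79 (adjusted p = 6e-06), under 2-fold, so that pair was not called.

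Gabra4 (ENSMUSG00000029211.11, chromosome 5 from 71569749 to 71658308, minus strand) encodes the alpha subunit that joins delta in the forebrain. It was at 117, 119 and 113 TPM in dentate granule cells, and at 47.2, 45.3 and 47.1 TPM in layer V neurons. Dentate granule cells lay above layer V neurons in every library, by a log2 fold change of 1.01 (standard error 0.069, adjusted p = 6.6e-10), which lay at the 2-fold limit and fell under it in 9 alternatives with values from 0.85 to 0.99. Interneurons (38.4 to 41.3 TPM) and astrocytes (24.8 to 25.7 TPM) followed with no overlap, and microglia were at 3.42 to 4.83 TPM. Cerebellar granule cells were again lowest, at 1.64, 1.52 and 1.41 TPM.

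Gabra2 (ENSMUSG00000000560.9, chromosome 5 from 70957597 to 71095849, minus strand), an alpha subunit known from the axon initial segment of forebrain neurons, shared this order at its ends but not in its middle. Dentate granule cells were highest at 121, 128 and 118 TPM and cerebellar granule cells lowest at 0.972, 0.791 and 0.706 TPM. Between them, interneurons were at 73.6, 81.3 and 66.5 TPM, astrocytes at 73.7, 70.1 and 69.3 TPM, and layer V neurons at 64.1, 61.1 and 68.7 TPM. Interneurons overlapped both of the others, and the order of the 3 was not fixed. Layer V neurons and interneurons differed by a log2 fold change of 0.23 in the edgeR fit (layer V higher, adjusted p = 0.052). Astrocytes and layer V neurons differed by a log2 fold change of 0.10 (standard error 0.10, adjusted p = 0.37), and interneurons, slightly above astrocytes in TPM, were below them by 0.34 on the log2 scale in the edgeR fit (adjusted p = 0.006), which normalizes by the trimmed mean of M-values. Microglia were at 8.10 to 12.1 TPM, 2.81 below layer V neurons in log2 fold change (adjusted p = 4.1e-14).

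Gabra3 (ENSMUSG00000031343.13, chromosome X from 72432681 to 72656848, minus strand), whose alpha subunit is known from cortical deep layers and monoaminergic nuclei, was, besides Gabra6, the alpha gene that was low in dentate granule cells. Layer V neurons were at 76.5, 70.3 and 75.1 TPM and interneurons at 70.8, 76.5 and 73.2 TPM, and these overlapped, with a log2 fold change of 0.32 (layer V higher, adjusted p = 0.015). Dentate granule cells were at 11.4, 18.003 and 17.4 TPM and astrocytes at 16.9, 17.5 and 14.1 TPM, which overlapped too. The difference between layer V and dentate granule cells was 2.51 in log2 fold change (layer V higher, standard error 0.115, adjusted p = 4.1e-12). Dentate replicate 1 was the low one of its group. Without it, dentate granule cells lay above microglia (6.87 to 8.40 TPM) by a log2 fold change of 1.04, against 0.89 with it (adjusted p = 1.5e-06). Cerebellar granule cells were at 0.598 to 0.829 TPM.

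**Figure D1:**
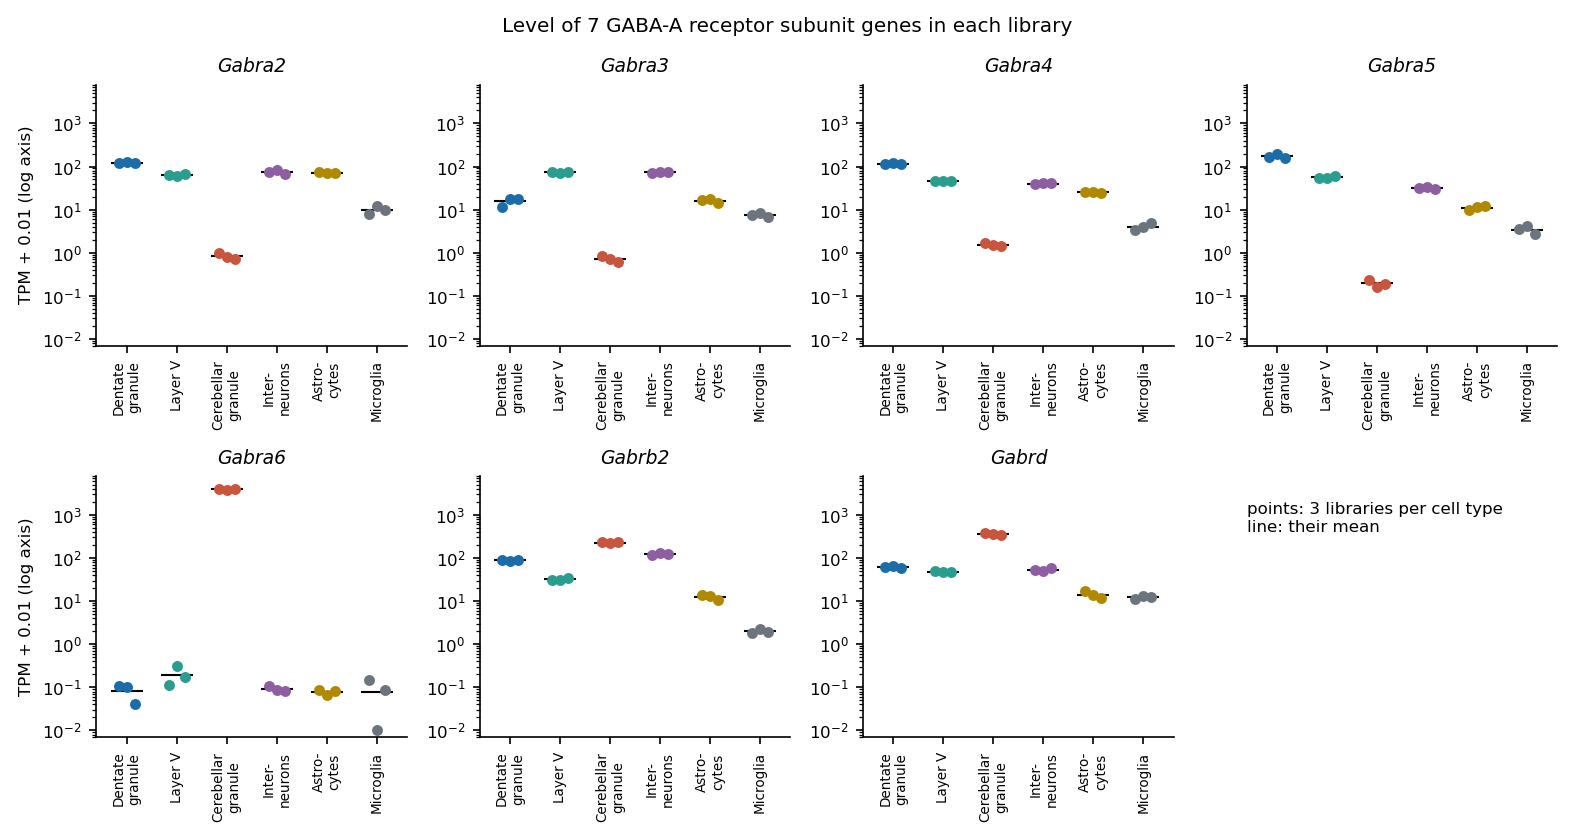
TPM + 0.01 (log axis) of each of the 7 genes in each of the 18 libraries, by cell type, with 3 points per cell type and a line at their mean. Gabra6 stands at 3869.9 to 3916 TPM in cerebellar granule cells and under 1 TPM elsewhere, while Gabra2, Gabra3, Gabra4 and Gabra5 are lowest in cerebellar granule cells.

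Gabrb2 (ENSMUSG00000007653.12, chromosome 11 from 42419757 to 42629028, plus strand) encodes a beta subunit common in synaptic receptors. It was highest in cerebellar granule cells at 231, 221 and 230.2 TPM, followed by interneurons at 119, 134 and 121 TPM and dentate granule cells at 88.5, 86.7 and 87.8 TPM. These 3 cell types did not overlap. Cerebellar granule cells lay above interneurons by a log2 fold change of 1.00 (standard error 0.067, adjusted p = 2.2e-10), just under the 2-fold limit, and 10 alternatives put it at or above the limit, or dropped the limit. Layer V neurons were lowest of the neurons at 31.7, 30.9 and 34.9 TPM, astrocytes were at 10.7 to 14.0 TPM and microglia at 1.84 to 2.25 TPM. Each of the last 3 steps down was called, with log2 fold changes from 1.20 to 2.70.

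Gabrd (ENSMUSG00000029054.8, chromosome 4 from 155384980 to 155398112, minus strand), the delta subunit, was at 371, 356 and 335 TPM in cerebellar granule cells. The forebrain neurons lay close together, with dentate granule cells at 63.4, 63.8 and 58.0 TPM, interneurons at 53.6, 50.6 and 57.7 TPM, and layer V neurons at 48.7, 47.9 and 47.0 TPM. Cerebellar granule cells were higher than dentate granule cells by a log2 fold change of 2.58 (standard error 0.071, adjusted p = 7.9e-16). Dentate granule cells and layer V neurons differed by 0.13 (standard error 0.068, adjusted p = 0.098), and interneurons and layer V neurons by 0.12 with layer V higher in the edgeR fit (adjusted p = 0.16) although lower in TPM. Astrocytes (12.0 to 16.7 TPM) and microglia (11.2 to 12.9 TPM) overlapped. Over the coding form Gabrd-201 alone, astrocytes were at 11.7 TPM and microglia at 6.60 TPM on average.

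Over the 15 pairs of cell types, 81 of the 105 comparisons of a member between 2 cell types were called at an adjusted p of at most 0.05 and at least 2-fold. This is 77.1%, where the same rule called 45.3% over all genes tested. The 81 and the 105 include pairs in which Gabra6 was under 1 TPM in both types. Gabra6 passed the filter on low counts through the cerebellar libraries, so no conclusion is drawn from these shares. Gabra2 and Gabra6 were each called in 9 pairs (for Gabra6, 4 of these were layer V neurons against types with under 1 TPM), Gabrd in 11, Gabra3 and Gabra4 in 12, Gabrb2 in 13 and Gabra5 in 15. The pairs share libraries and are not independent. By pair, the share of all genes called ran from 25.2% to 63.1%.

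All 7 were called between dentate and cerebellar granule cells (42.1% of all genes) and between layer V neurons and cerebellar granule cells (46.7%). All 7 were also called between cerebellar granule cells and astrocytes (57.7%) or microglia (63.1%) and between layer V neurons and microglia (58.9%). Interneurons differed from cerebellar granule cells in 6 (44.3%) and from microglia in 6 (55.0%). Dentate granule cells differed from microglia in 5 (53.6%) and from layer V neurons in 5 (26.3%). Astrocytes differed from layer V neurons in 5 (47.6%), from microglia in 5 (44.3%), from dentate granule cells in 4 (44.3%) and from interneurons in 4 (41.4%). The counts of all 4 pairs of layer V neurons with types other than cerebellar granule cells include Gabra6, which was under 1 TPM in both types and passed the filter on low counts through the cerebellar libraries; without it they were 6 against microglia, 4 against dentate granule cells, 4 against astrocytes and 2 against interneurons. The fewest members, 3, were called between interneurons and dentate granule cells (28.3%) and between interneurons and layer V neurons (25.2%).

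The question of which subunit genes set neurons apart from glia was asked with the mean of the 4 neuronal types against the mean of the 2 glial types on the log scale. Higher in neurons were 5 of the 7 genes: Gabra4, Gabra5, Gabra6, Gabrb2 and Gabrd. The 5 include Gabra6, which passed the filter on low counts through the cerebellar libraries, so no conclusion is drawn from the count. The p-values rest on the spread between replicate libraries of a cell type and do not measure the spread between neuronal types or between glial types. Of all genes tested 46.3% were called and 15.9% were called higher and 30.3% lower in neurons (3270 higher and 6229 lower; on log2(TPM + 1) with limma, 3031 and 3128). Gabrb2 ran from 30.9 to 231 TPM in neuronal libraries and from 1.84 to 14.0 TPM in glial libraries, with no overlap, a log2 difference of 4.02 with a standard error of 0.053 (adjusted p = 1e-20). Gabrd ran from 47.0 to 371 TPM against 11.2 to 16.7 TPM, also with no overlap, with a log2 fold change of 2.38 (standard error 0.048, adjusted p = 2e-18). For the 5 alpha genes the groups overlapped.

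The alpha genes that were called rested on unlike cell types. Gabra6 had a log2 fold change of 4.25 (standard error 0.417, adjusted p = 2.8e-08), and its neuronal mean came from cerebellar granule cells. Gabra4 (1.12, standard error 0.048, adjusted p = 1.7e-13) and Gabra5 (1.09, standard error 0.142, adjusted p = 1.4e-06) were higher in neurons although 1 neuronal type held the lowest level of all. Gabra2 had a log2 fold change of -0.15 (adjusted p = 0.049) and Gabra3 of 0.36 (adjusted p = 0.00033), neither of them 2-fold. Within batch 2 the same number, 5, was called higher (15.5% of all genes there), but dentate, layer V, cerebellar and astrocyte cells had 1 library each there, all of them repeats of batch 1 replicates, and were assumed to vary like interneurons and microglia. Within batch 1, which held no interneurons or microglia, 3 neuronal types were set against astrocytes alone, and Gabra2 (-2.09) and Gabra3 (-1.03) were called lower in neurons, Gabra4 was at -0.52 and Gabra5 at -0.16, while Gabra6 (5.50), Gabrb2 (2.52) and Gabrd (2.50) were called higher; of all genes there 14.2% were higher and 30.4% lower.

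The comparison of cerebellar granule cells with the 3 forebrain neuron types divided the 7 genes. All 7 were called, where 43.6% of all genes tested were: Gabra6, Gabrb2 and Gabrd were higher in cerebellar granule cells (14.5% of all genes) and Gabra2, Gabra3, Gabra4 and Gabra5 were lower (29.1% of all genes). Gabra6 passed the filter on low counts through the cerebellar libraries, whose cells were selected through its promoter. Its call is therefore no test, and no conclusion is drawn from the count of 7. The log2 fold changes were 15.10 for Gabra6 (standard error 0.126), 2.71 for Gabrd (0.050) and 1.68 for Gabrb2 (0.050). They were -8.67 for Gabra5 (0.208), -6.50 for Gabra2 (0.136), -5.86 for Gabra3 (0.146) and -5.26 for Gabra4 (0.085). The largest adjusted p of these 7 was 1.9e-15. The sizes for Gabra6 and Gabra5 rested on few reads in 1 of the groups, at most 22 per library, and varied with the setting, from 11.78 on log2(TPM + 1) to 16.07 within batch 2 for Gabra6 and from -9.22 within batch 1 to -5.86 on log2(TPM + 1) for Gabra5. Gabra3 was at -4.72 and Gabra2 at -5.54 on log2(TPM + 1). For each gene the 3 cerebellar libraries lay outside the range of the 9 forebrain libraries. Within batch 1, with 3 libraries of each type and no interneurons, the same directions were called for all 7 (17.1% of all genes there were higher and 28.6% lower). They were called within batch 2 too (14.99% higher and 22.5% lower of all genes), where cerebellar, dentate and layer V cells had 1 library each, a repeat of a batch 1 replicate, so that the spread came from the other groups.

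**Figure D2:**
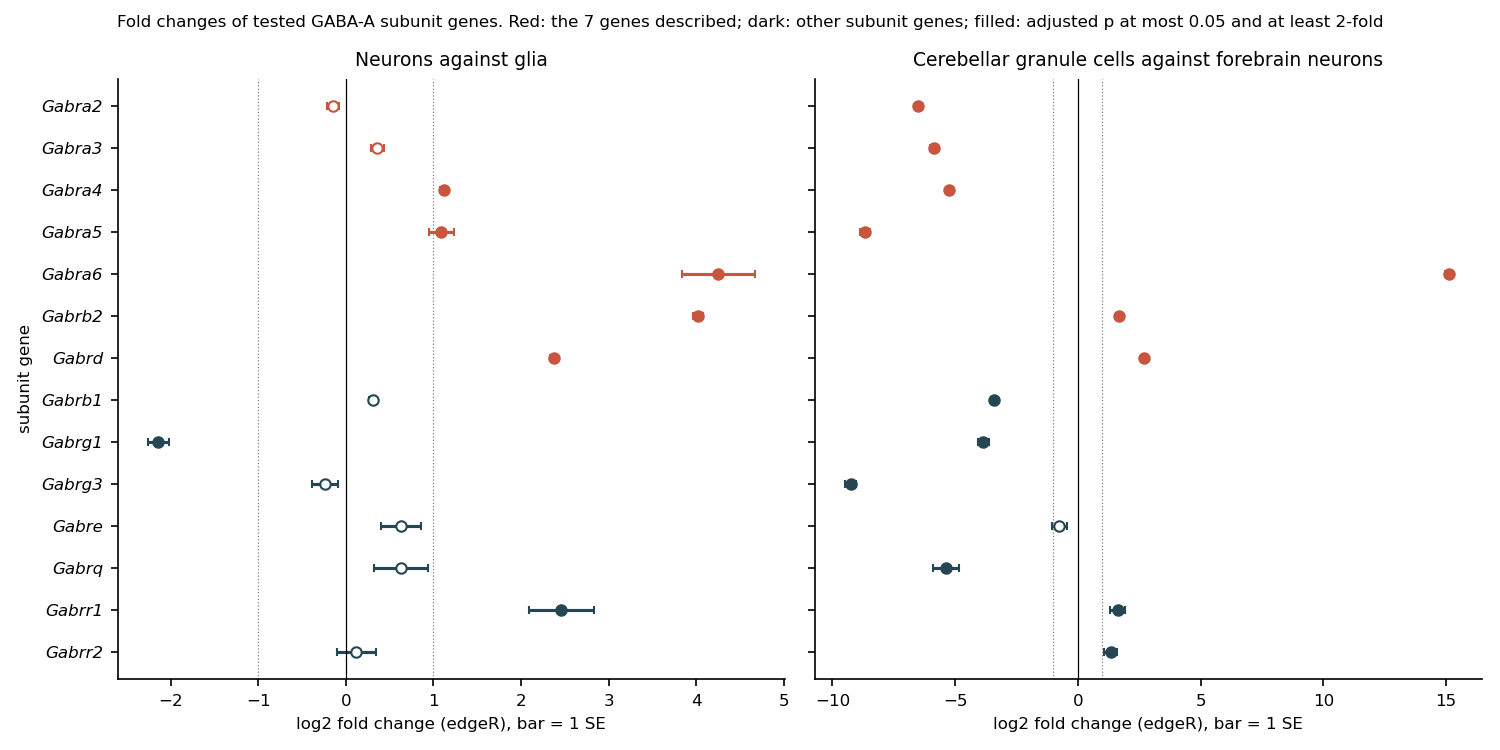
Log2 fold changes from edgeR (x axis, bars 1 standard error) of the 7 genes (red) and of 7 other tested subunit genes (dark), for neurons against glia on the left and cerebellar granule cells against forebrain neurons on the right; filled points passed both limits. Gabra6 lies at 15.10 on the right, and the 4 other alpha genes lie between -8.67 and -5.26.

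Of the 9 other subunit genes, 7 passed the filter on low counts, and Gabrp and Gabrr3 did not. In neurons against glia, 1 was higher, 1 was lower and 5 were not called, where 15.9% of all genes tested were higher and 30.3% lower, with a median log2 fold change of 0.31 beside -0.18 over all genes. Within batch 1, against astrocytes alone, 1 was higher and 3 were lower (Gabrb1 at -1.76, Gabrg1 at -6.48 and Gabrg3 at -2.53), where 14.2% of all genes were higher and 30.4% lower. Higher was Gabrr1 (2.46), a rho subunit, which stayed under 1 TPM everywhere. It had 9 estimated reads in the astrocyte libraries together and 3 in the microglial ones, so the size of its change is imprecise. That change was 1.36 within batch 1 and 3.09 within batch 2. Over the 18 libraries Gabrb1 (0.31), Gabrg3 (-0.24), Gabre (0.63), Gabrq (0.63) and Gabrr2 (0.12) were not called. Gabrg1 was the one that was lower in neurons (-2.14, standard error 0.118, adjusted p = 6.5e-12). Its level was 71.5 ± 2.64 TPM (SD, n = 3) in astrocytes, 17.3 ± 3.55 in interneurons and at most 4.00 on average elsewhere. Gabrb1, whose gene lies next to Gabra4, had its highest levels in astrocytes (48.7 ± 1.85 TPM) and dentate granule cells (45.5 ± 1.61 TPM).

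In cerebellar granule cells against forebrain neurons, 2 of the 7 were higher (Gabrr1 at 1.63 and Gabrr2 at 1.34, both under 1 TPM on average), 4 were lower and 1 was not called, where 14.5% of all genes were higher and 29.1% lower, with a median log2 fold change of -3.42 beside -0.21 over all genes tested. Lower were Gabrb1 (-3.42), Gabrg1 (-3.85), Gabrg3 (-9.26) and Gabrq (-5.36). In the 3 cerebellar libraries together Gabrg3 had 7 estimated reads and Gabrq 5, so the sizes of their changes are imprecise. Within batch 1, without interneurons, Gabrg1 was at -2.80, Gabrg3 at -8.41 and Gabrr1 at 2.38. Gabre (-0.75) did not reach 2-fold.

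**Figure D3:**
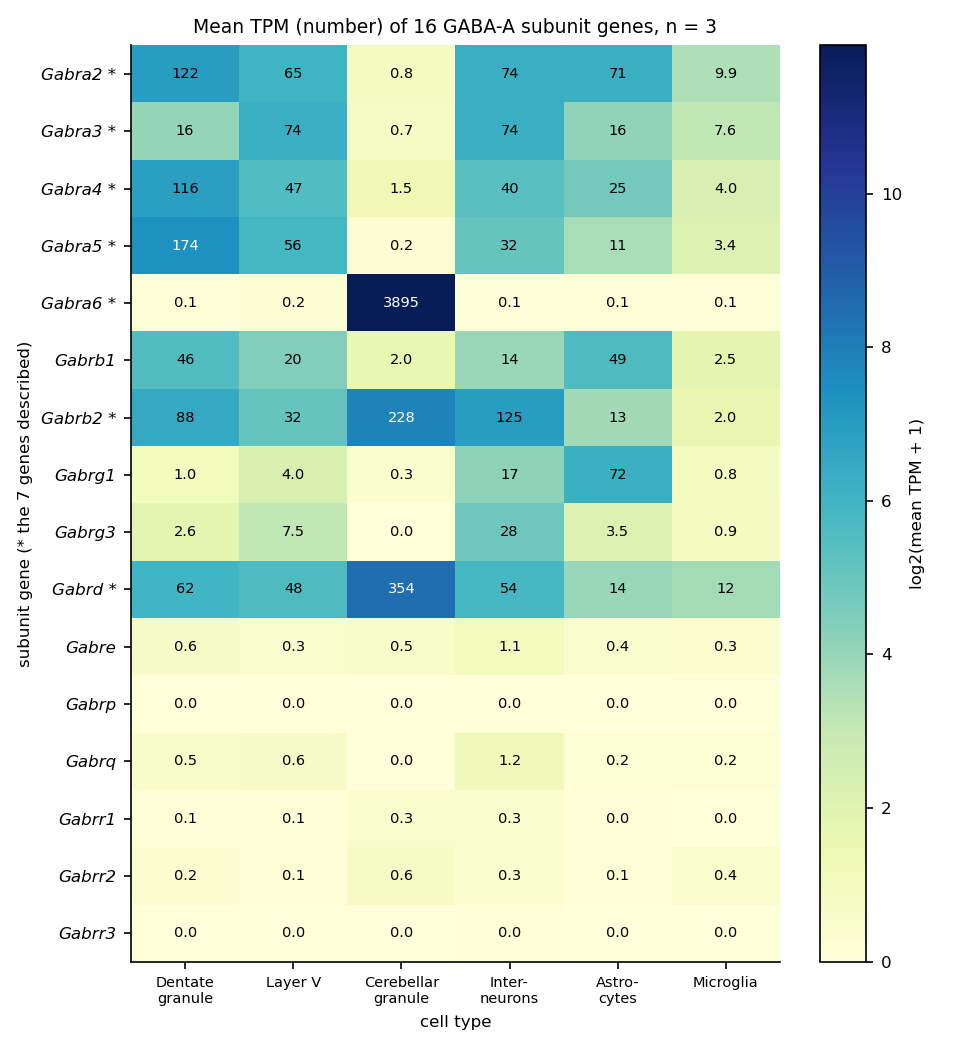
Mean TPM over 3 libraries (numbers) of 16 GABA-A subunit genes in 6 cell types, coloured by log2(mean TPM + 1), with stars at the 7 genes described. The darkest colour is Gabra6 in cerebellar granule cells at a mean of 3895 TPM, and the row of Gabrg1 is darkest in astrocytes at 71.5 TPM.

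The 5 alpha genes were also compared as shares of their summed TPM. Gabra6 made up 99.92% ± 0.01003 (SD, n = 3) of this sum in cerebellar granule cells, and the 4 others were each at 0.0390% or less. In dentate granule cells Gabra5 led at 40.5% ± 1.40, followed by Gabra2 at 28.6% ± 0.542 and Gabra4 at 27.2% ± 1.08, with Gabra3 at 3.64% ± 0.810. Layer V neurons were more even, from Gabra3 at 30.7% ± 0.711 to Gabra4 at 19.3% ± 0.415. Interneurons had Gabra2 at 33.6% ± 1.84 and Gabra3 at 33.5% ± 0.970, which overlapped. Over protein-coding transcripts alone, which leave out the decay form of Gabra2 described below, Gabra2 was at 16.25% in dentate granule cells, 17.03% in layer V neurons and 19.5% in interneurons, with Gabra4 at 30.9% in dentate granule cells and Gabra3 at 39.75% in interneurons, and it still led in astrocytes at 38.4%. By estimated counts, which are not scaled for transcript length, Gabra2 led in dentate granule cells (34.3%, with Gabra5 at 31.35%) and in layer V neurons (31.9%, with Gabra3 at 30.03%), and Gabra5 was the lowest of the 4 in layer V neurons at 16.7%. Astrocytes were led by Gabra2 at 57.4% ± 1.08, and no library of another cell type had a share of Gabra2 above 42.3%. The sum itself was 3898 ± 23.1 TPM in cerebellar and 428 ± 25.95 in dentate granule cells. It was 241 ± 9.79 TPM in layer V neurons and 219.6 ± 11.6 in interneurons, and among glia 124 ± 2.95 in astrocytes and 25.04 ± 3.08 in microglia. These are shares of mRNA, and subunit protein was not measured.

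**Figure D4:**
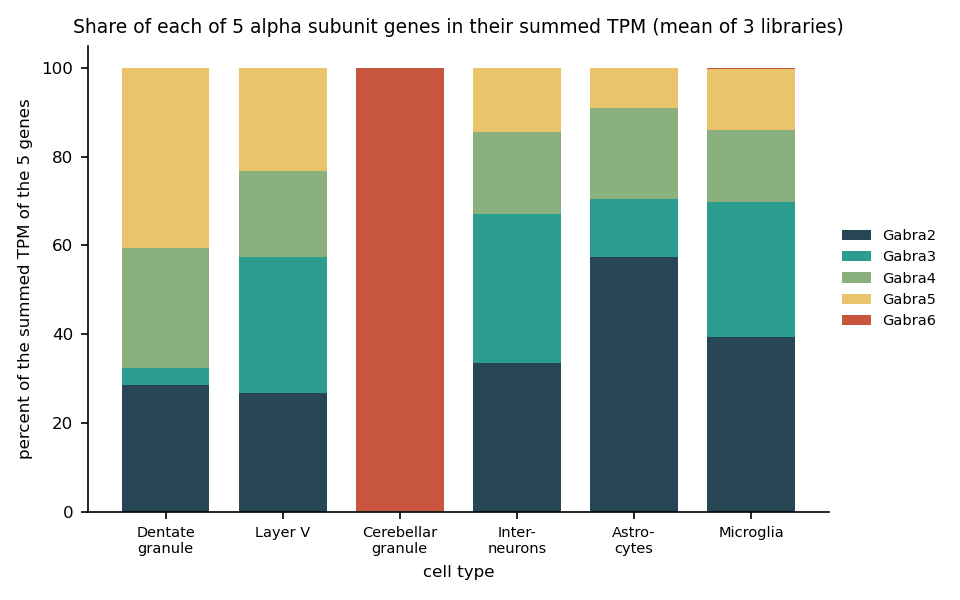
Mean share (percent of the summed TPM of Gabra2 to Gabra6, 3 libraries) of each of the 5 alpha genes in 6 cell types. Gabra6 fills the bar of cerebellar granule cells at 99.92%, Gabra5 leads in dentate granule cells at 40.5% and Gabra2 in astrocytes at 57.4%.

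Levels in glia were set beside those of layer V neurons, which came from the same tissue. In astrocytes the mean TPM of Gabra2 was 109.9% of that in layer V neurons, Gabra4 was at 54.6%, Gabrb2 at 38.9%, Gabrd at 29.7%, Gabra3 at 21.9% and Gabra5 at 19.8%. Measured the same way, the neuronal markers Snap25, Tubb3, Rbfox3 and Syt1 were at 10.3% to 18.04% and the cortical projection neuron genes Fezf2 and Tbr1 at 23.9% and 23.5%. Gabra2, Gabra4, Gabrb2 and Gabrd were above these 6 markers, and Gabra3 and Gabra5 lay between the general markers and Fezf2. The 4 interneuron markers were higher in astrocyte than in layer V libraries, with Gad2 at 206% (13.7 TPM against 6.65), Slc32a1 at 284.5%, Gad1 at 319% (47.4 TPM against 14.9) and Dlx1 at 946%, and all 6 subunit genes lay below them. Where the 6 genes stood among neuronal markers therefore differed between marker sets. The interneuron markers were low in layer V libraries (2.03 to 14.9 TPM on average), so their percentages are not on the scale of the others. In interneuron libraries Gad1 was at 2029, Gad2 at 570, Slc32a1 at 535 and Dlx1 at 141 TPM on average. Beside them, Gabrg1 was at 1786% and Gabrb1 at 242% of the layer V level.

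In microglia the same shares were 25.4% for Gabrd, 15.3% for Gabra2, 10.2% for Gabra3, 8.70% for Gabra4, 6.16% for Gabra5 and 6.15% for Gabrb2, the 6 general and projection neuron markers were at 3.91% to 14.0%, and the 4 interneuron markers were at 60.6% to 186%. Gabra3, Gabra4, Gabra5 and Gabrb2 lay within the range of the first set, and Gabra2 and Gabrd lay between the sets. As for astrocytes, the percentages of the interneuron markers rested on low layer V levels. Over protein-coding transcripts alone Gabrd was at 14.15% (6.60 TPM against 46.7 in layer V neurons), just above the first set, and Gabra2 at 13.1%, within it. The marker percentages were over all transcripts, so these are not on the same basis. In astrocytes, over protein-coding transcripts, Gabra2 was at 87.6% and Gabrd at 25.1%. How much of the glial values came from neuronal mRNA was not tested.

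**Figure D5:**
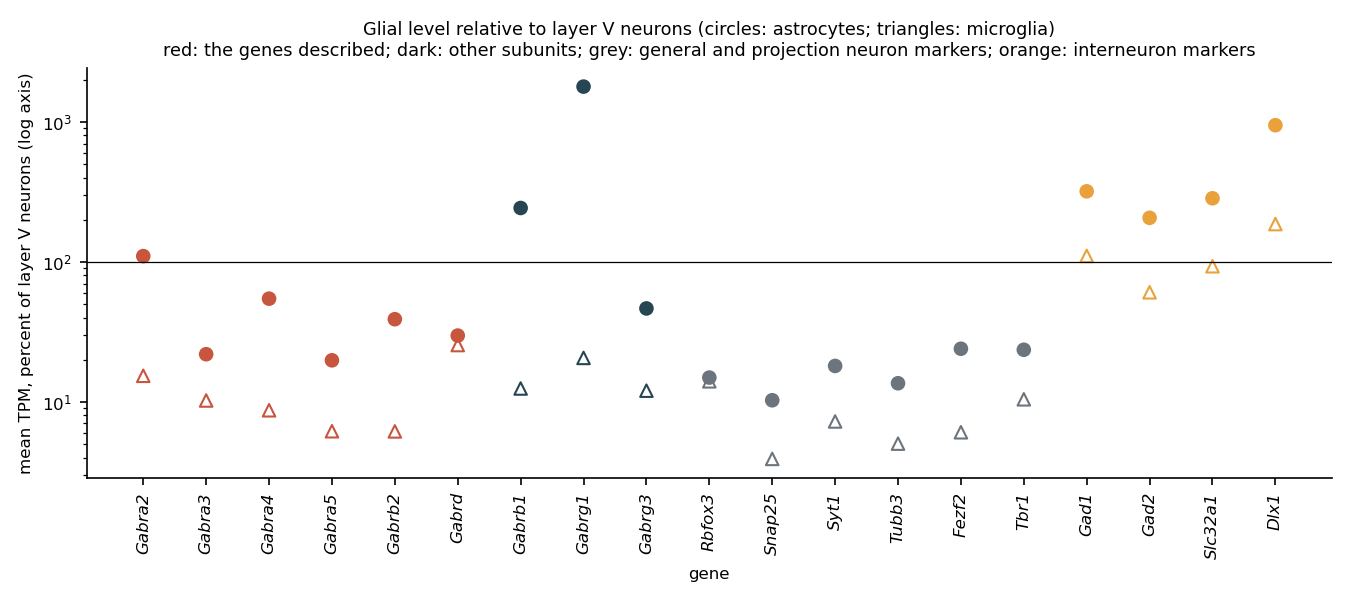
Mean TPM in astrocytes (circles) and microglia (triangles) as a percent of the mean in layer V neurons (log axis), for the 6 genes described with a level over 1 TPM in cortex (red), 3 other subunits (dark), 6 general and projection neuron markers (grey) and 4 interneuron markers (orange). In astrocytes Gabra2 is at 109.9%, the grey markers are at 10.3% to 23.9% and the orange ones at 206% to 946%. The orange markers were low in layer V neurons, at 2.03 to 14.9 TPM on average.

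The transcripts behind these sums were mostly 1 coding form for some genes and several forms for Gabra2, Gabra5 and Gabra6. Gabrb2-201 held 97.2% to 100% of Gabrb2 TPM on average, Gabra3-201 held 87.25% to 94.4% of Gabra3 outside cerebellar granule cells, and Gabra6-203 held 65.3% ± 0.679 of Gabra6 in cerebellar granule cells (SD, n = 3), with Gabra6-202 at 25.8% ± 0.535. Gabra5 was divided between the coding forms Gabra5-201 and Gabra5-202, with 43.2% ± 3.13 and 44.3% ± 0.772 in dentate granule cells and 34.85% ± 3.11 and 57.75% ± 1.54 in layer V neurons, and Gabra5-203 held 12.5% ± 2.36 and 7.405% ± 1.745 there. Gabra2 was divided between the coding Gabra2-203 and Gabra2-204, a form annotated as a target of nonsense-mediated decay. In astrocytes Gabra2-204 held 52.0% ± 1.33 and Gabra2-203 43.7% ± 1.503, and in layer V neurons the shares were 42.2% ± 1.39 and 54.8% ± 1.16. Gabra2-203 alone was at 31.1 TPM in astrocytes, 34.8 in interneurons, 35.45 in layer V neurons and 57.75 in dentate granule cells. Gabrd-201, the coding form, held 95.2% to 97.5% of Gabrd in the 4 neuronal types, 82.6% ± 2.70 in astrocytes and 54.4% ± 3.498 in microglia, where the non-coding Gabrd-203 held 38.55% ± 3.355. Gabrd-201 alone was at 6.60 TPM in microglia and 11.7 TPM in astrocytes.

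Several of these genes lie side by side: Gabra2 and Gabra4 with Gabrg1 and Gabrb1 on chromosome 5, Gabra5 with Gabrg3 on chromosome 7, Gabra6 with Gabrb2 on chromosome 11, and Gabra3 with Gabre and Gabrq on the X. Neighbours were alike in part but did not share one pattern. Gabra6 and Gabrb2 were both highest in cerebellar granule cells, and Gabra5 and Gabrg3 were both lowest there. On chromosome 11 Gabra6 was under 1 TPM in dentate granule cells, where Gabrb2 was at 87.7 TPM, and on chromosome 5 Gabrg1 was highest in astrocytes while Gabra2 and Gabra4 were highest in dentate granule cells. In GENCODE release 21, exons of Gabra4 share 46 bases with Gabrb1 on the other strand and exons of Gabra5 share 148 bases with the antisense gene Gm9962. The strand setting of the quantification was not given in the sources used here, so reads from those bases cannot be assigned to a strand, and the values of Gabra4 and Gabra5 are uncertain by that much.

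Genes with a pattern like each member were ranked by Pearson's r of log2(TPM + 1) over the 18 libraries among 18687 genes whose highest cell type mean was at least 1 TPM. The 18 points are 6 cell types in triplicate, so r mostly compares 6 levels. Closest to Gabra6 were Fat2, Cnpy1 and Crtam (r = 0.9998, 0.9998 and 0.9996). Closest to Gabra5 were Cpne4, D430019H16Rik and Efcab1 (0.998, 0.997 and 0.995), and to Gabra4 Ccdc85a, Stxbp6 and Zdhhc15 (0.997, 0.992 and 0.992). Gabra2 was followed by Grid1 (0.996) and Abr (0.985), and Gabra3 by Olfm2, 2900060N12Rik and Mboat7 (0.993, 0.989 and 0.988). Gabrb2 was followed by Chl1, Fem1b and Zfp874a (0.998, 0.995 and 0.994), and Gabrd by Epb41l4b, Mmp24 and Zfp949 (0.996, 0.993 and 0.992). Among the members, Gabra4 and Gabra5 were most alike (0.977), Gabrb2 was close to Gabrd (0.882), and Gabra2 and Gabra6 were the most opposed (-0.854).

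The genes that assemble, transport and anchor the receptor were given from a list of 16, all of which were tested. In neurons against glia 7 were higher, none was lower and 9 were not called, with a median log2 fold change of 0.64. Of all genes 15.9% were higher and 30.3% lower, with a median of -0.18. Within batch 1, against astrocytes alone, 3 were higher (Lhfpl4 at 1.53, Hap1 at 2.39 and Slitrk3 at 1.63) and 1, Rdx (-1.22), was lower (14.2% and 30.4% of all genes there), and Gabarapl1 was at 0.81 and Insyn1 at 0.28, not called. Gabarapl1, a relative of the receptor-associated protein Gabarap, was higher (1.58), as was Insyn1 (1.38), a protein of inhibitory synapses. Gabarap itself was at -0.93 and Ubqln1, which stabilizes receptors, at 0.65, short of 2-fold. In cerebellar granule cells against forebrain neurons 3 were higher, 6 were lower and 7 were not called (median -0.52 beside -0.21 over all genes, of which 43.6% were called). Higher were Gphn (1.10), which encodes the scaffold gephyrin, Ubqln1 (1.07) and Rdx (1.25), known as the anchor of alpha 5 receptors outside synapses. On the log2 scale Gabarapl1 fell by 1.44 there, Insyn1 fell by 1.35, and Gabarap was at -0.21.

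Of 9 genes of GABA supply and the GABA-B receptor, 2 were higher in neurons (Gad1 at 1.02, the enzyme of GABA synthesis, and Gabbr2 at 2.05), 2 were lower (the GABA transporters Slc6a11 at -3.87 and Slc6a13 at -6.16) and 5 were not called: Gabbr1 (0.92), Abat (-0.48), Gad2 (0.41), Aldh5a1 (0.39) and Slc32a1 (-0.20). The median log2 fold change was 0.39, where 15.9% of all genes were higher and 30.3% lower. Within batch 1, against astrocytes alone, none was higher and 8 were lower (14.2% and 30.4% of all genes there), among them Gad1 (-1.46) and Gabbr1 (-1.01), with a median of -2.37 beside -0.18 over all genes, and Gabbr2 was at 0.52, not called; astrocytes had more Gad1 than layer V neurons, as given above, and interneurons had no library in that batch. In cerebellar granule cells none was higher and 5 of 9 were lower than in forebrain neurons, with a median of -1.54, where 14.5% of all genes were higher and 29.1% lower. Lower were Gad1 (-5.17), Gad2 (-4.69), Slc32a1 (-4.65), Slc6a11 (-4.26) and Abat (-1.54, the enzyme that degrades GABA), while Gabbr1 (-0.49), Gabbr2 (-0.56), Aldh5a1 (-0.81) and Slc6a13 (adjusted p = 0.062) were not called. Within batch 1, without interneurons, 4 were lower with a median of -0.82: Gad1 (-3.36), Gad2 (-2.49), Slc32a1 (-2.36) and Slc6a11 (-3.73), where 28.6% of all genes were lower. Abat was not called there (-0.39), with 438 TPM in interneurons and 40.4, 39.4 and 30.4 TPM in dentate granule cells, layer V neurons and cerebellar granule cells. Interneurons are 1 of the 3 forebrain types and held 2029 ± 52.9 TPM of Gad1 (SD, n = 3), with 149.5 ± 9.02 TPM in dentate granule cells and 14.9 ± 1.33 in layer V neurons. Of the pair of chloride transporters, Slc12a5, which extrudes chloride from mature neurons, was higher in neurons (2.69, standard error 0.033, adjusted p = 4.4e-21), and Slc12a2, which imports it, was higher in cerebellar granule cells than in forebrain neurons (2.48, standard error 0.061, adjusted p = 1.3e-16).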

How the data were processed

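Tagged ribosomes were immunoprecipitated and their RNA sequenced from stranded libraries. Adapters were removed with cutadapt 3.5. Abundances came from kallisto 0.46.2 on GENCODE mouse transcripts (GRCm38), and the authors deposited estimated counts and TPM per transcript for each library. The strand setting was not given in the sources used here.

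From these files, TPM and estimated counts were summed per gene, and the summed counts were rounded to whole numbers. One model over 18 libraries was fitted with edgeR 4.0.16 (R 4.3.3; TMM, filterByExpr, quasi-likelihood test), with Benjamini-Hochberg adjustment over 20524 genes. A gene was called at an adjusted p of at most 0.05 and at least 2-fold. The standard error is the unshrunk log2 fold change of the fit, not the one printed, divided by the square root of F. Alternatives used DESeq2 1.42.0, limma 3.58.1 on log2(TPM + 1), no filter, length-scaled counts, batch choices, the replicate block and each replicate left out; the fit was tested on simulated data.

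Libraries held 38270477 to 71440915 estimated counts. P-values measure the spread between replicate libraries within a cell type, not the spread between cell types. Named were all 7 members, the other subunits, the 4 most abundant genes of each list, genes in counts of at most 5 and the 3 genes most like each member. The members and lists were chosen with earlier results of these data known, and the shares of the 5 alpha genes were chosen after seeing the data, in place of planned shares of the whole alpha family. Some genes of the family, the lists and the ranking are not reported here, and counts over lists leave them out. Loci came from GENCODE release 21 and promoters from RefSeq (GRCm38.p6), which held 6 of the 7 members. Python 3.11.15, pandas 2.3.3 and matplotlib 3.10.9 were used.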

Additional observations from a re-analysis of the deposited data

How the results depend on the processing

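The count of members called in neurons against glia was 5 and in cerebellar granule cells against forebrain neurons 7 under every alternative with the 2-fold limit, including within each batch, although within batch 1 the 5 were 3 higher and 2 lower. Leaving out 1 replicate gave 5 to 5 members in neurons against glia, 78 to 83 member and pair calls (81 in all libraries) and 7 to 7 members in the cerebellar comparison. Within batch 1, which allows 42 of the 105 member and pair comparisons, 34 were called. The share of all genes called in those pairs is not given here. All these counts of members include Gabra6, which passed the filter on low counts through the cerebellar libraries. No conclusion is drawn from them. With the adjusted p alone, 17087 and 15990 of all genes and 30 and 33 of the listed genes passed in the 2 comparisons, against 9499, 8952, 14 and 21. In neurons against glia the 14 listed genes were 11 higher and 3 lower; within batch 1, which lacks interneurons and microglia, 17 were called, 5 higher and 12 lower. With limma on log2(TPM + 1), 6159 and 4983 of all genes and 14 and 18 listed genes were called, the 18 being 4 higher and 14 lower against 6 and 15. Leaving out 1 replicate gave 9548 to 9867 and 8894 to 9222 for all genes and 13 to 14 and 21 to 22 for the listed genes.

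Directions turned in some values. On log2(TPM + 1), Gabra2 was at 0.22 in neurons against glia and at 0.05 in interneurons against astrocytes, and Gabrd at 0.17 in interneurons against layer V neurons. Within batch 1, without interneurons and microglia, neurons against glia gave -1.03 for Gabra3, -0.52 for Gabra4 and -0.16 for Gabra5. The other turns were in Gabra6 outside the cerebellum, on at most 22 reads: layer V neurons against interneurons gave -0.14 within batch 2; interneurons against dentate granule cells gave 0.10 with length-scaled counts, 0.01 on log2(TPM + 1), 0.15 with 22 libraries, 0.51 within batch 2 and -0.55 to 0.43 leaving out 1 replicate; dentate granule cells against microglia gave -0.002, -0.12 with 22 libraries, -0.47 within batch 2 and -0.42 to 0.71; and microglia against astrocytes gave 0.0 on log2(TPM + 1), 0.26 within batch 2 and -0.88 to 0.20. The cause was not tested. Of the comparisons of single members over all alternatives, 869 kept their direction and side of the threshold, 23 turned, 26 gained and 15 lost a call.

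The replicate block gave 5, 81 and 7 members, 9496 and 8927 of all genes and 14 and 21 listed genes. Deviations of samples with the same replicate number correlated between -0.0999 and 0.109 (median 0.0391), and those with different numbers between -0.116 and 0.132 (median -0.0202). The ranges overlapped, though the median was higher for the same number, and no pairing was assumed. All cell types were pooled in this check, so it cannot decide on single pairs of types. The labels do not say whether dentate and layer V libraries, both from Rbp4-Cre, came from the same mice. TPM over coding nuclear transcripts moved 39 of 42 member levels by more than 1 SD, coding transcripts of the gene alone 15 of 42, and shares of the alpha genes by estimated counts 20 of 30 (Gabra6 99.84% in cerebellar granule cells) and by coding transcripts 21 of 30, both added after seeing the data. Shares of the whole alpha family were not run under other settings. Counts at or under 22 reads limit any order of Gabra6 outside the cerebellum.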

Other observations

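The markers of cerebellar granule cells (Neurod1, Zic1, Fat2 and Cbln3) summed to 37.8, 31.1 and 3.82 TPM in interneuron replicates 1, 2 and 3, of which Zic1 was 36.4, 29.8 and 2.17 TPM, while Gabra6 was at 0.096, 0.075 and 0.071 TPM in the same libraries. Car8, listed as a Purkinje cell marker, was at 54.3 TPM in astrocytes and 15.3 TPM in cerebellar granule cells.

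The 4 libraries that repeated a replicate in batch 2 entered only the checks within batch 2 and with 22 libraries or batch 2 libraries. Among them, Gabra6 in cerebellar granule cells replicate 3 was at 3883 TPM, against 3916 TPM in batch 1, and Gabra5 in layer V replicate 1 was at 56.1 TPM, against 55.4 TPM. For that layer V replicate the labels gave the mouse another sex in each batch, while its libraries held 2.45 and 2.13 TPM of Xist and 0.09 and 0.03 TPM of the Y-linked Ddx3y, against 0.01 and 26.96 TPM in layer V replicate 3. By the chi-square per degree of freedom over genes, the library was nearer to batch 1 replicate 1 (3.37) than to replicates 2 (13.9) and 3 (14.5).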
